A study of Drosophila melanogaster with 4 samples.

Results

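Closely spaced strong autosomal Su(Hw) peaks were chosen by their score, width and position in the list of peaks from white prepupae of Drosophila melanogaster. A peak entered the set if it lay on 2L, 2R, 3L, 3R or chromosome 4, scored 45 or more, was narrower than 5000 bp, and had at least 1 other peak scoring 45 or more with a gap between the edges of at most 5000 bp. The rule selected 855 of the 5357 peaks in the list (16.0%). They made up 34.5% of the 2475 strong autosomal peaks narrower than 5000 bp. The other 1620 had no strong peak that near and are called solitary below. Peaks scoring 45 or more are called strong, those below 45 weak, and strong peaks of 5000 bp or more broad. A broad peak could be the neighbour that qualified a member but was not a member itself.

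Su(Hw), encoded by suppressor of Hairy-wing, is a zinc-finger protein that binds DNA directly. It is best known for the insulator of the gypsy retrotransposon, where copies of its recognition sequence stand in a tandem array and where Mod(mdg4) and CP190 join it to block communication between enhancers and promoters. Away from gypsy the protein occupies many single sites and some clusters of sites. It is also known as a repressor of neuronal genes in the female germ line, where it is needed for oogenesis. White prepupae are animals at the start of metamorphosis, when the larva stops moving and its cuticle becomes the puparium.

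Chromatin came from whole white prepupae of the strain labelled Y cn bw sp, and the series held 2 libraries immunoprecipitated with a rabbit polyclonal antibody to Su(Hw) and 2 libraries of input DNA. The labels give all 4 libraries the same genotype. It carries y[1] together with oc[R3.2], then Gr22b[1] and Gr22d[1], followed by cn[1], CG33964[R4.2], bw[1] and sp[1], and finally LysC[1] and lab[R4.2] with MstProx[1], GstD5[1] and Rh6[1]. No treatment is given, and whole animals mix all tissues. The data analysed here were 1 list for the whole series, with coordinates and a peak caller score for every peak. It holds no value per library, so sequencing depth is unknown and no spread between replicates could be computed. The score is the authors' own value on a scale not given in the sources used here, and it was used within this list alone. Scores repeated often: the 855 members held 646 distinct values, and 555 members shared their score with another peak of the list. The values that chose the members are given as a description, and no p-value was computed.

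Most members stood in pairs. Strong peaks were chained into groups wherever the gap to the next strong peak was at most 5000 bp, with broad peaks counted as links. This gave 423 groups with at least 1 member, holding the 855 members and 120 broad peaks. Pairs numbered 326 (77.1% of the groups) and triplets 74 (17.5%). There were 15 groups of 4, 7 groups of 5 and 1 group of 6. A strong neighbour stood on 1 side only of 739 members and on both sides of 116. The close neighbours were narrow peaks only for 727 members, broad peaks only for 96, and both for 32. A further 13 chains consisted of broad peaks alone and held no member.

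The 6 strong peaks of the largest group lay at 2R:8697446-8729197, within 31752 bp. In order along the arm they scored 368.58, 74.65, 127.62, 230.77, 80.52 and 519.52, and the third was a broad peak of 5928 bp. The strongest 2 peaks thus stood at the ends, and 3 of the interior peaks are members, of which 2 scored below 100. The gaps were 2044, 233, 3985, 2773 and 1923 bp.

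Of the 7 groups of 5, the one with the highest summed score, 1861.19, lay at 2R:15405992-15429890. Its scores were 337.98, 619.78, 470.61, 106.1 and 326.72, so its lowest peak stood 308 bp from one of its highest. The first of its gaps, 2988 bp long, held 3 weak peaks. At 2R:12756077-12783516 the scores rose from 133.13 through 403.92 to 464.05, fell to 142.36 and ended with a broad peak at 540.83.

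The group at 3L:1994187-2018838 had the widest spread of scores among the 8 largest groups. It started with 55 and went directly to 540.86, followed by 283.02, a broad peak at 292.66, and 138.44. The highest score was 9.83 times the lowest. The group at 3L:13573148-13598774 had the narrowest spread of the 8, at 2.67 times, with scores of 207.55, 122.32, 141.57, 180.79 and 327.04.

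The remaining 3 of the 8 were on 2L. At 2L:17195340-17214891 the scores were 263.08, 55.59, 333.04, 489.33 and 143.15, with only 56 bp between the last and the one before. At 2L:14128124-14156343 they were 81.84, 138.44, 389.3, 160.01 and, for a broad peak, 358.33. At 2L:6578466-6599051 a broad peak of 388.26 was followed by 145.9, 75.29, 448.84 and 67.05. Each of these 3 groups held scores above 300 and below 100. No group on 3R or chromosome 4 had 5 strong peaks. The arm 3R held 34 of the 97 groups of 3 or more, next to 141 of all 423 groups.

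**Figure D1:**
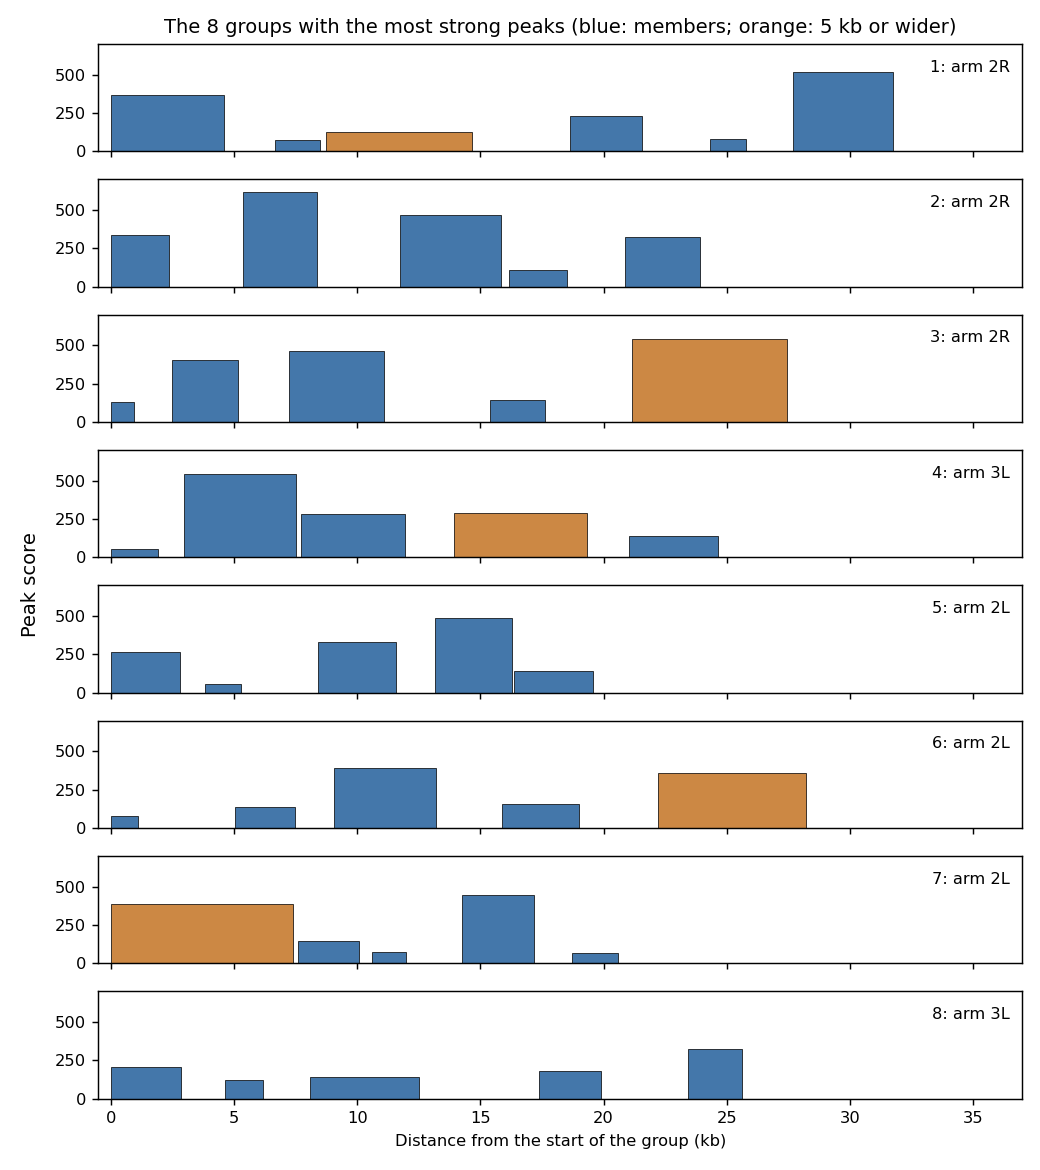
Peaks of the 8 groups with the most strong peaks, drawn to scale as distance from the group's start (horizontal axis, kb) against the peak score (vertical axis). Blue bars are members and orange bars are broad peaks; scores within a group differed from 2.67 to 9.83 times, and low and high peaks stood side by side.

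The median span was 8812.5 bp for pairs, 14396 bp for triplets, 20741 bp for groups of 4 and 24652 bp for groups of 5. Each further peak adds its width and a gap to a chain, so this increase is built into the way groups are formed. Strong peaks covered a median of 70.4% of a group's span (interquartile range 59.6 to 83.5%). The median score of members did not follow group size in one direction. It was 270.64 in pairs, 230.77 in triplets, 309.725 in groups of 4 (52 members) and 180.79 in groups of 5 (31 members).

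The highest-scoring member of each autosomal arm is given here with its nearest strong neighbour. A neighbour that is itself a member could not score higher, since the maximum was chosen by score. The highest score, 1043.17, belonged to 3R:27281751-27286528, and its neighbour 2013 bp away scored 254.24. On 2R the maximum was 953.83 at 11666392-11671051, beside a peak of 100.67 at 2578 bp. On 3L it was 828.43 at 6014023-6018928, beside a broad peak of 645.23 at 4249 bp.

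On 2L the maximum was 782.25 at 9118452-9122260, beside a peak of 264.02 at 2252 bp. Chromosome 4, the small dot chromosome, had a single group of 2 members: 4:434533-437162 scored 867.59 and its neighbour at 4998 bp scored 69.55. That pair qualified by 2 bp. The 3 pairs with the highest summed score each joined a member to a broad peak on 2R. At 2R:3021940-3031782 a broad peak of 913.59 and a member of 694.21 stood 601 bp apart. At 2R:6876726-6897478 the scores were 800.89 and 535.2, and at 2R:10881814-10893827 they were 730.59 and 604.11.

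Gaps inside groups were spread over the whole permitted range, with a surplus at the shortest. The 552 gaps had a median of 2426.5 bp (interquartile range 1120.5 to 3706 bp) and ran from 45 to 5000 bp. The rate fell from 260 gaps per kb of gap length at up to 100 bp to 190 at 100 to 200 bp, 127 at 200 to 500 bp and 82 at 500 to 1000 bp. Beyond that it was 100 between 1 and 2 kb, 111 between 2 and 3 kb, 119 between 3 and 4 kb, and 98 between 4 and 5 kb. Just beyond the limit, at 5 to 6 kb, all neighbouring strong autosomal peaks gave 115 per kb, and at 9 to 10 kb they gave 74. Gaps up to 5 kb were counted in groups with a member, without the 13 chains of broad peaks alone, so the 2 sets differ slightly. Between these sets no drop was seen at the limit of 5000 bp.

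Gaps of up to 200 bp numbered 45. A broad peak was on 1 or both sides of 14 of these 45 gaps (31.1%), against 132 of all 552 (23.9%). The smallest gap, 45 bp, separated a broad peak of 5068 bp scoring 150.26 from 2R:13038360-13039862, which scored 116.34. Gaps of 47 bp lay before 2R:4598109-4602051 (204.74, after a peak of 54.83) and before 3R:4449334-4453352 (327.04, after a peak of 291.69). The next 2 were gaps of 49 bp before 2R:4946446-4951171 and of 50 bp before 2R:6911069-6912539. Of these 5 gaps, 4 were on 2R, but the next were gaps of 51 bp on 3L and of 52 bp on 2L and 2R. The count by arm thus depends on where the list of smallest gaps stops. The peak caller's rule for joining nearby summits is not given in the sources used here, and its part in the shortest gaps was not tested.

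**Figure D2:**
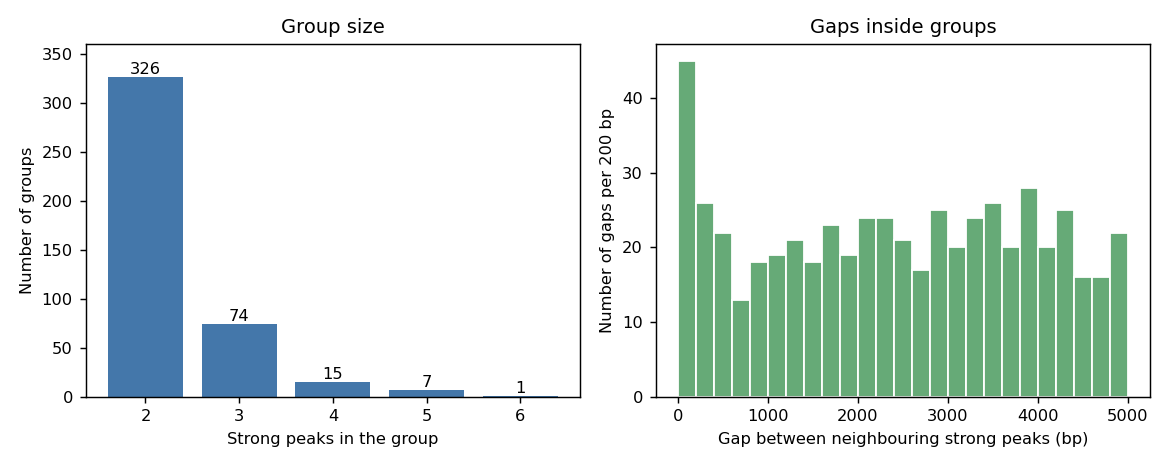
Left, number of groups (vertical axis) by strong peaks in the group (horizontal axis). Right, histogram of the 552 gaps inside groups in bins of 200 bp (horizontal axis, bp); the first bin holds 45 gaps and no other bin is as full.

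Close neighbours were about as alike in score as neighbours far apart. For the 420 neighbouring pairs of members, the higher score was a median of 1.92 times the lower (interquartile range 1.34 to 3.74), and 222 pairs (52.9%) were within 2-fold. Neighbouring strong narrow peaks 5 to 10 kb apart had a median ratio of 1.89 (328 pairs), those 10 to 20 kb apart 1.88 (450 pairs), those 20 to 50 kb apart 1.97 (546 pairs), and those over 50 kb apart 1.96 (428 pairs). Their shares within 2-fold ran from 51.1 to 53.8%. Over all 364543 pairs of members from different groups, wherever they lay, the median ratio was 2.08 and 48.0% were within 2-fold.

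The median ratio changed little with the gap. It was 1.84 for the 31 pairs with gaps of up to 200 bp, 1.86 for the 85 pairs up to 1 kb, 1.99 at 1 to 2 kb and 1.94 at 2 to 5 kb. The share within 2-fold was higher at the shortest gaps, at 61.3% of the 31 pairs up to 200 bp. It was 57.4% of the 54 pairs up to 500 bp and 56.5% of the 85 pairs up to 1 kb. These classes are nested and both include the 31 shortest pairs, so they are not separate steps of a trend. The share was 50.7% at 1 to 2 kb and 52.3% at 2 to 5 kb. These short classes hold few pairs, and the difference was not tested. Across the 420 pairs the scores of the first and second peak had a Spearman rho of 0.03. It was 0.09 for gaps of up to 200 bp, 0.15 for gaps of up to 500 bp and 0.10 for gaps of up to 1 kb. At 1 to 2 kb it was -0.02, at 2 to 5 kb 0.02, and for neighbours over 50 kb apart 0.07. These are descriptions across pairs, which share libraries and in groups of 3 or more also share peaks. Log2 scores of members had an SD of 1.08 within groups and 1.10 over all 778 members of the 346 groups with 2 or more members, an intraclass correlation of 0.03.

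The score of a member gave little information on the score of its neighbour. Members in the lowest 25% of scores (up to 122.695) had neighbours with a median score of 275.39, and those in the highest 25% (above 408.64) had neighbours with a median of 295.875. The members between had neighbours with medians of 230.77 below and 261.215 above the members' median. Of the 420 pairs, 113 had both scores at or above the members' median of 263.42, 110 had both below it, and 197 (46.9%) had 1 on each side.

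The pairs at both extremes show the range. The ratio was highest, 16.3, for 3L:6917597-6921540, which scored 767.4 beside a peak of 47.21 at a gap of 2233 bp. It was 12.6 for 3R:9025606-9027245, which scored 48.17 at 1560 bp from a peak of 605.28. Next came 3L:21317677-21322214 (569.4 beside 45.38), the pair on chromosome 4 described above, and 3R:797755-800973 (622.52 beside 51.61).

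A ratio above 5 was found in 66 pairs (15.7%). The most even pair, 2L:14737358-14739394 and 2L:14741449-14743967, had 89.25 for both peaks. It was followed by 3R:17026997-17030034 (256.06 beside 257.3) and 2L:12219933-12223916 (473.9 beside 470.61). In all, 194 of the 423 groups (45.9%) had all their strong peaks within 2-fold. This share counts broad peaks and mixes group sizes. The median ratio of the highest to the lowest score was 1.95 in pairs and 3.47 in triplets. It was 6.56 in groups of 4 and 5.84 in groups of 5.

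**Figure D3:**
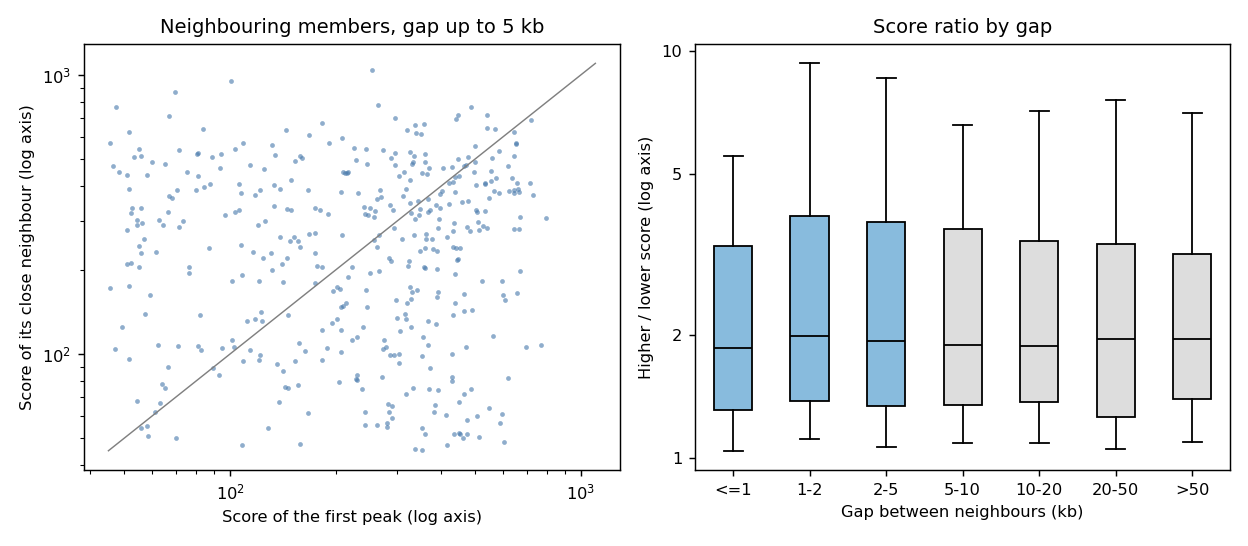
Left, score of the first peak (horizontal log axis) against the score of the next (vertical log axis) for the 420 neighbouring pairs of members, with the line of equal scores. Right, ratio of the higher to the lower score (vertical log axis) by gap class (horizontal axis, kb) for neighbouring strong narrow autosomal peaks; boxes are quartiles, whiskers the 5th and 95th percentiles, blue the classes inside groups, and the medians lie between 1.86 and 1.99 in every class.

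Within groups of 3 or more, the strongest peak had no fixed place. It stood at an end in 63 of the 97 groups and inside in 34 (35.1%), while 38.2% of the positions averaged over these groups were inside. Among triplets it was the middle peak in 20 of 74 (27.0%, where 33.3% of the positions are inside). Among the 15 groups of 4 it was inside in 9 (60%, where 50% of the positions are inside). Broad peaks were counted here and could be the strongest of a group.

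Scores of members covered nearly the range of the solitary peaks. Members had a median of 263.42 (interquartile range 122.695 to 408.64, range 45.38 to 1043.17) and solitary peaks a median of 279.59 (interquartile range 150.3 to 440.3). The ratio of the medians was 0.94, with a 95% interval of 0.87 to 1.02 from the order statistics of the members' scores, which includes 1. It was 0.90 with a gap limit of 4000 bp, 1.01 with 6000 bp and 1.02 with 10000 bp, so no direction is read from it. Narrow strong peaks were divided by score into 5 classes of 20% each. The share of members was 40.9% in the lowest class and 30.4% in the highest, with 33.3 to 34.9% in the 3 classes between. Among the 100 highest-scoring peaks of the whole list 6 were members and 37 were solitary. Among the top 500 there were 72 (14.4%) and 169, and among the top 1000 there were 173 (17.3%) and 392. Members were 16.0% of the whole list, and 1620 of its 5357 peaks were solitary. The list also holds broad peaks and peaks on the X chromosome, which the rule leaves out. The score is part of the rule, so these values describe the set and test nothing.

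Members were wider than solitary peaks of like score. Median widths were 2897 and 2718.5 bp overall. In the lowest score class they were 1499 and 1301 bp, in the middle class 3076 and 2694 bp, and in the highest class 4136 and 3936 bp. The geometric mean width of members was 1.15, 1.10, 1.14, 1.06 and 1.05 times that of solitary peaks from the lowest to the highest class. A wider peak also brings its edge nearer to its neighbour, so width is not independent of a rule based on gaps between edges. Width followed score equally in both sets, with a Spearman rho of 0.77 across members and 0.76 across solitary peaks. In 321 of the 420 pairs (76.4%) the wider peak had the higher score, and among neighbours over 50 kb apart the share was 76.9%.

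**Figure D4:**
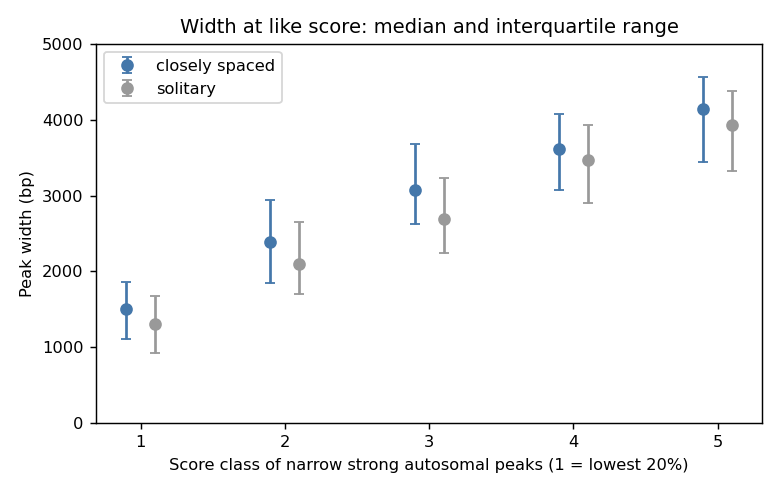
Peak width (vertical axis, bp; points are medians and bars interquartile ranges) by score class (horizontal axis, 5 classes of 20%) for closely spaced members in blue and solitary peaks in grey. The median of members is above that of solitary peaks in each class, from 1499 against 1301 bp to 4136 against 3936 bp.

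Weak peaks were not used by the rule, and those beside narrow strong peaks were counted by whether the side faced a close strong neighbour. Of 971 sides that did, 212 (21.8%, Wilson 95% interval 19.3 to 24.5%) had a weak peak within 1 kb, before any other strong peak. The outer sides of members had one in 85 of 739 (11.5%, interval 9.4 to 14.0%), and the sides of solitary peaks in 358 of 3240 (11.0%, interval 10.0 to 12.2%). A weak peak in a short gap can be near both of its neighbours. With gaps of over 2000 bp alone the share was 107 of 588 (18.2%, interval 15.3 to 21.5%). How often a weak peak in these longer gaps still counted for both of its neighbours was not determined. The intervals cover counting error only and treat sides as independent, and the difference was not tested.

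Inside the groups, 178 of the 552 gaps (32.2%) held at least 1 weak peak, and these gaps held 212 weak peaks of the 1312 on the autosomes. The share was 12.9% for gaps of up to 1 kb. It was 53% for the 100 gaps of 1 to 2 kb, and 30.6, 34.5 and 34.7% for gaps of 2 to 3, 3 to 4 and 4 to 5 kb. The filled share was thus highest in gaps of 1 to 2 kb and not in the longest gaps.

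Members were spread over all the large autosomal arms. There were 283 on 3R in 141 groups, 194 on 2R in 94, 193 on 2L in 95, 183 on 3L in 92, and 2 on chromosome 4. They were 37.2% of the narrow strong peaks of 3R (Wilson 95% interval 33.9 to 40.7%), 36.1% on 2R (32.2 to 40.3%), 33.9% on 2L (30.1 to 37.9%) and 30.4% on 3L (26.9 to 34.2%). The intervals of all 4 arms overlapped, those of 3R and 3L only between 33.9 and 34.2%. Overlap does not show that the arms are alike, and the difference between arms was not tested. On chromosome 4 the share was 2 of 8 (interval 7.1 to 59.1%). The same rule applied to the X chromosome selected 209 of 631 (33.1%, interval 29.6 to 36.9%), with a median ratio between close neighbours of 1.92 (105 pairs) and a median gap of 2421 bp, next to 1.92 and 2426.5 bp on the autosomes. The median gap of the X counts any chains of broad peaks alone, which the 2426.5 bp leaves out. With such chains counted, the autosomal median gap was 2406 bp.

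Along the large arms the share of members was 29.7% (interval 26.0 to 33.8%) in the 20% of the length at the telomere-facing end. It was 35.8, 36.3 and 37.1% in the next 3 stretches of 20% and 33.3% (28.7 to 38.4%) in the stretch at the centromere. Arm lengths of release 5 were not used here, and each arm was taken to end at its last peak. The stretch at the centromere held the fewest narrow strong peaks, 360, against 518 to 537 in the others.

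The share of members was higher where strong peaks were denser. In the 94 complete windows of 1 Mb the number of members ranged from 0 to 20 with a median of 8.5. Members were 29.0% of the narrow strong peaks in the 34 windows with up to 24 of them, 33.5% in the 31 windows with 25 to 29, and 39.6% in the 29 windows with 30 to 40. The Spearman rho between the number of narrow strong peaks and the share of members was 0.32 across windows; both use the same peaks, and more peaks in a window leave shorter gaps.

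The window 3L:7000001-8000000 held the most members, 20 of 36 in 10 groups. It was followed by 2R:6000001-7000000 and 3R:15000001-16000000, each with 19 of 33, in 10 and 7 groups. At the other end, 3L:14000001-15000000 had 20 narrow strong peaks and 1 member, and no member lay in 2R:1000001-2000000 or 3L:23000001-24000000, which held 11 and 4 narrow strong peaks. The window 3L:14000001-15000000 was chosen here after its value was seen. Neighbouring groups were a median of 140944 bp apart, and 81 groups had another within 20 kb.

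**Figure D5:**
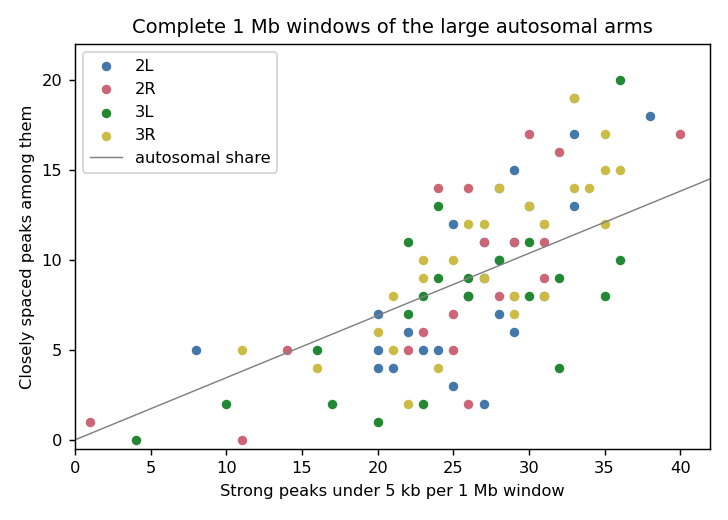
Number of closely spaced members (vertical axis) against the number of strong peaks narrower than 5 kb (horizontal axis) in 94 complete windows of 1 Mb, coloured by arm; the grey line is the autosomal share of 34.5%. Windows with 30 to 40 such peaks have 39.6% members and reach 20.

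The peaks and gaps nearest to each limit of the rule are given here. They were picked by the values the rule used, so their closeness in those values was given in advance. The lowest members scored 45.38, 45.4 and 45.42, and the peaks just outside, with a strong peak as near, scored 44.34, 43.26 and 42.98. The widest members measured 4993, 4986 and 4964 bp, and the narrowest broad peaks in chains 5022, 5039 and 5047 bp. The largest gaps were 5000, 4998 and 4987 bp, and the smallest gaps beyond the limit 5037, 5046 and 5051 bp. No gene, transcript or sequence was assigned to any peak, since a genome and annotation of the list's build were not used here.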

How the data were processed

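Per the file headers, coordinates are 1-based on FlyBase release 5 and peaks were written by MACS; build BDGP5, BWA, MACS2 and CASAVA (1.7.0.2, 1.7.0.3) are listed per the submitters' processing notes. Not given in the sources used here are the calling threshold, whether input served as control and whether libraries were pooled. The only measurement is the deposited score of each peak, the authors' value for 1 list of the whole series; 0 columns of per-sample values were set aside. The gap is the number of bases between 2 peaks' edges. Broad peaks linked groups. Named regions are the 8 groups with the most strong peaks, the maximum of each arm, the 5 smallest and 3 largest gaps, the 5 highest and 3 lowest ratios, the 3 pairs with the highest summed score, the 3 windows with the most members and the 3 peaks on each side of every limit. The members and lists were chosen with earlier results of these data known. No test was run: there are no replicate values, and the rule used score, width and position. Wilson 95% intervals cover counting error only. The code that finds groups was tested on a made-up list with known groups. Figures were drawn with matplotlib 3.10.9; intervals came from SciPy 1.17.1, and tables were handled with pandas 2.3.3 and NumPy 2.4.6 in Python 3.11.15.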

Additional observations from a re-analysis of the deposited data

How the results depend on the processing

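Of 50 alternative values, 32 stayed within the interval of the reported value, or within 1.5 times of a reported count, and 18 moved. The median score ratio of close neighbours, 1.92 as reported (order-statistic 95% interval 1.77 to 2.08), moved only with the score limit, to 2.27 at 30 and 1.61 at 100. It lay between 1.86 and 1.95 under the other alternatives. The score limit sets both the lowest possible score and which peaks count as neighbours, and the cause of the shift was not tested. The share of members was 37.5% with a score limit of 30 and 28.9% with 100. It was 14.5% for gaps of at most 2000 bp, 28.7% at 4000 bp, 40.9% at 6000 bp and 56.8% at 10000 bp. Leaving broad peaks out gave 30.7%, and measuring between centres 14.2%. There were 358 members in 196 groups at 2000 bp and 1407 members at 10000 bp. The median gap was 890 bp at 2000 bp, 2042 bp at 4000 bp, 2991 bp at 6000 bp and 4387 bp at 10000 bp, as the limit truncates it. The median score of members was 0.94 times that of solitary peaks as reported, with an interval of 0.87 to 1.02 that includes 1. The ratio was 0.95 at 2000 bp, 0.90 at 4000 bp, 1.01 at 6000 bp and 1.02 at 10000 bp. It was 0.88 with a score limit of 30 and 0.98 with 100. With broad peaks left out it was 0.96, and with broad peaks as members also 0.96. No direction is read from it, and the cause of the changes was not tested. The limits of 4000 and 6000 bp were added after the data were seen. No paired analysis was possible because the list holds no values per library, and no replicate could be left out. Depth is unknown: a solitary peak may have neighbours that too few reads left out of the list.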
